A study of Mus musculus with 10 samples.

Results

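The transcripts described here belong to the core machinery of apoptosis: the BCL2 family, the caspases, the inhibitor of apoptosis proteins (IAPs) and the adaptors of the death receptors. The list names 36 genes, and a gene was taken as measured where the array annotation gives a probe set that names it alone. That held for 33 of the 36, against 18193 genes measured in all. The other 3, Bax, Ripk1 and Trp53, were not analysed here. Probe sets that name 1 of these genes numbered 86, and each gene was represented by its probe set with the highest mean level.

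Apoptosis is set off inside a cell at the mitochondrion or from outside at a receptor. At the mitochondrion, BH3-only proteins counter the survival proteins of the BCL2 family, so that the effectors can open the outer membrane, cytochrome c escapes, and caspase 9 is activated on APAF1. At the membrane, Fas and the receptors of TRAIL recruit FADD and caspase 8, which FLIP (Cflar) restrains, while tumour necrosis factor receptors recruit TRAF2 and the IAPs BIRC2 and BIRC3 and lead chiefly to NF-kappa B. A separate branch of caspases serves inflammation, with caspase 1 cutting interleukin 1 beta and mouse caspase 4 (also called caspase 11) responding to lipopolysaccharide in the cytosol. Regulatory T cells are known for a reliance on MCL1 and for restraint of their numbers by BIM (Bcl2l11).

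Regulatory T cells (Treg cells) lie within the CD4+CD25+ T cells that were profiled, which came from pooled lymph node sites of BALB/c mice 17 to 19 days old. They were taken with an isolation kit and studied without treatment or culture. The mice were homozygous for SHP-1 knockout (me, with the motheaten phenotype, 3 arrays), heterozygous for it (he, 3 arrays) or wild type (WT, 4 arrays). SHP-1 is the tyrosine phosphatase encoded by Ptpn6, and the knockout is in the whole animal, so the T cells of me mice also come from an inflamed host. Arrays of a genotype are named biological replicates with nothing further on separate animals, so p-values measure the spread between these samples.

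By correlation the arrays form 2 sets that do not follow genotype. Set A holds me 1, me 3, he 1, WT 1 and WT 2, and set B holds me 2, he 2, he 3, WT 3 and WT 4. Pearson correlation over probe sets ran from 0.97 to 0.996 inside a set and from 0.854 to 0.944 across sets. On the first principal component me 3 scored -25.3, apart from the other set A arrays at -56.8 to -54.2. Differences below are therefore from a fit with array set as a block, in units of log2(intensity + 32) after quantile normalisation, and a call is an adjusted p under 0.05 over all 45037 probe sets. The sets were made from these values, and what they stand for is not given. At Ptpn6 itself the me arrays were lowest and the WT arrays highest with no overlap, at both of its probe sets. At the brighter one the levels were 8.84, 9.08 and 9.05 in me, 9.30, 9.33 and 9.54 in he, and 9.55, 9.63, 9.83 and 9.81 in WT. The me minus WT difference there was -0.69 ± 0.07 (adjusted p = 0.0549).

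Foxp3, the factor that defines Treg cells, had a log2 level of 11.14 ± 0.45 in me (SD, n = 3), 11.18 ± 0.38 in he (n = 3) and 11.03 ± 0.38 in WT (n = 4). Cd4 had 9.54 ± 0.13 in me, 9.38 ± 0.17 in he and 9.40 ± 0.14 in WT. These means pool both array sets, and Foxp3 was higher in set B by 0.62. With array set as a block, me minus WT was 0.21 ± 0.11 for Foxp3 and 0.15 ± 0.10 for Cd4 (unadjusted p = 0.0781 and 0.174). Of the other T and Treg cell markers, Ctla4 differed by 0.57 ± 0.25 and Il2ra, which encodes CD25, by -0.20 ± 0.10 for me minus WT (unadjusted p = 0.0501 and 0.0849). Of 4 matched markers of gamma delta T cells, Cd163l1 was lower in me by -1.31 ± 0.28 and Trgv4 by -0.84 ± 0.34 (unadjusted p = 0.00133 and 0.0338). The others, Sox13 and Il17a, differed by -0.02 ± 0.09 each. Summed intensities of the 4 were 1116 to 1538 in me, 1503 to 2646 in he and 1897 to 2417 in WT. The part of these cells in the differences below was not tested. In such bulk samples, fewer cells of a type and less RNA per cell cannot be told apart.

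Between me and WT the 6 members with the largest differences upward were Birc2, Casp4, Pmaip1, Casp1, Bid and Birc3, that is 2 inflammatory caspases, 2 IAPs and 2 BH3-only genes. The pore-forming effectors and the cell death caspases differed by -0.04 to 0.15. Casp4 was higher in me than in WT by 0.46 ± 0.06 (log2, SE), a 1.37-fold level, Birc2 by 0.50 ± 0.11, Casp1 by 0.34 ± 0.12 and Birc3 by 0.28 ± 0.07. Of the BH3-only genes, Bid was higher by 0.32 ± 0.09 at its brightest probe set alone, and Pmaip1 by 0.39 ± 0.21 (unadjusted p = 0.104). Cycs, Bcl2l1 and Tnfsf10 were lower in me, by -0.32 ± 0.09, -0.21 ± 0.08 and -0.19 ± 0.09. None of the 33 passed the adjusted threshold in any comparison, where limma called 3 probe sets of 45037 (0.00666%) between me and WT and 0 (0%) in each of the other comparisons. At an unadjusted p under 0.05, a mark used from here on to describe and not to call, me and WT parted for 8 of the 33 members, against 5.07% of all genes. Of these, 5 were higher in me (2.1% of all genes were) and 3 were lower (2.97%). Without the array set block 1 of the 33 did, Birc2, against 0.874% of all genes. The median me minus WT difference was -0.0094 over the members and -0.0015 over all genes, and 15 members lay within 0.1 of zero (45.5%, against 72.4% of all genes). Differences over 0.3 in size were seen for 7 members (21.2%), against 2.37% of all genes.

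**Figure D1:**
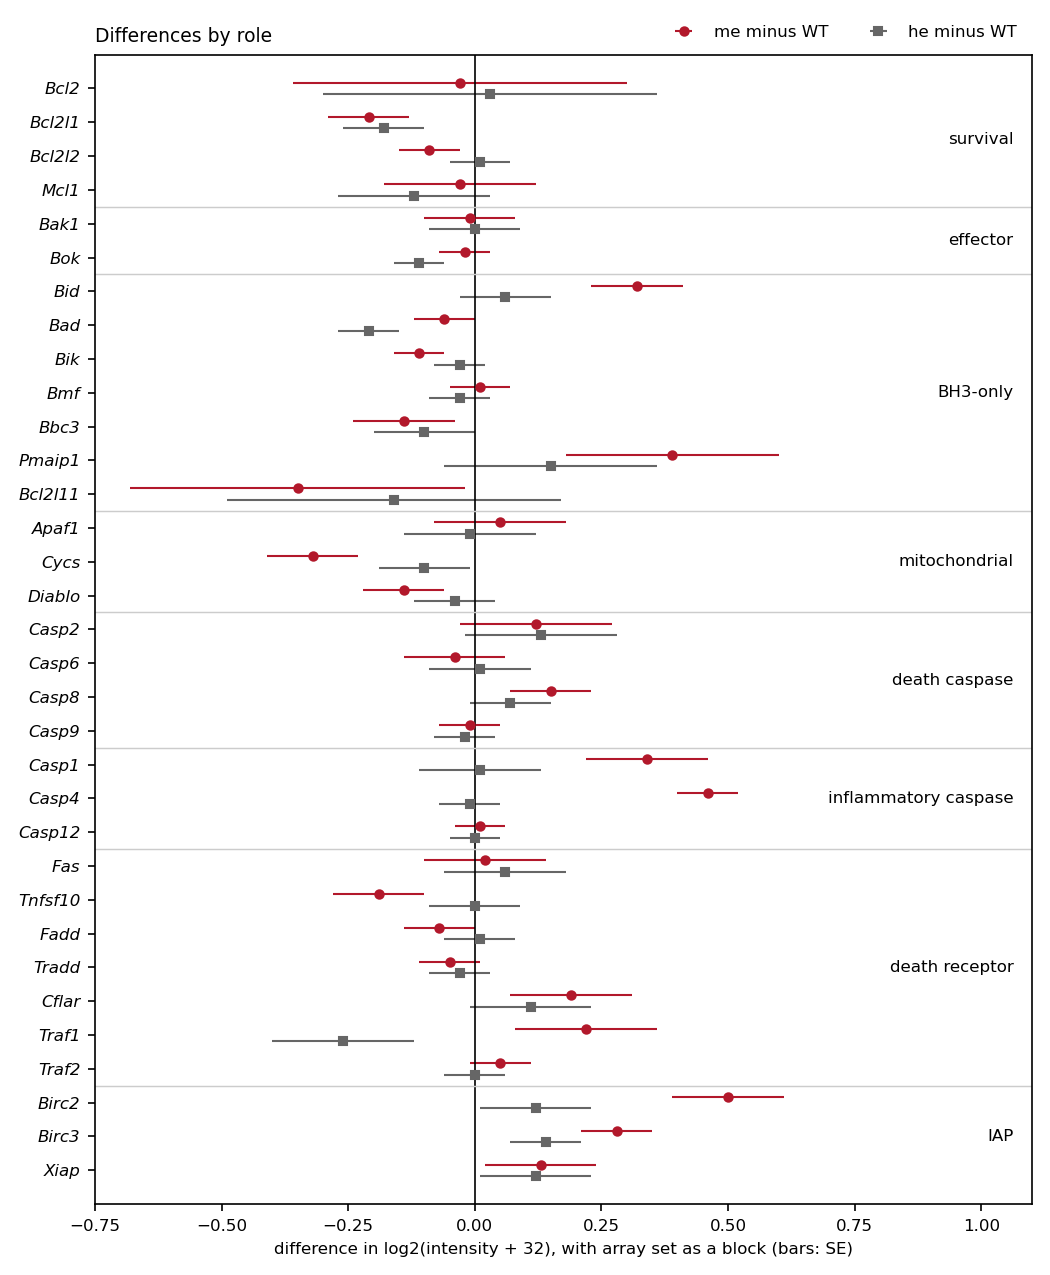
Differences of me minus WT (circles) and he minus WT (squares) for 33 apoptosis genes, in log2(intensity + 32) with array set as a block; bars are standard errors, and genes are grouped by role. Casp4 and Birc2 stand farthest to the right for me minus WT (0.46 and 0.50), with he minus WT at -0.01 and 0.12.

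Of the inflammatory caspases, Casp4 parted me most clearly from the other genotypes. Its log2 levels were 9.10, 8.44 and 9.05 in me 1 to me 3, 8.68, 7.97 and 7.79 in he 1 to he 3, and 8.67, 8.67, 7.87 and 7.92 in WT 1 to WT 4. Every me array was above every he and WT array of its own set, and the he and WT arrays of a set lay close together. The difference from WT, 0.40 inside set A and 0.54 inside set B, had an adjusted p of 0.188 (unadjusted p = 2.8e-05), the 4th smallest unadjusted p of 18193 genes. The difference from he was 0.47 ± 0.06 (adjusted p = 0.498, unadjusted p = 4.43e-05), the 3rd smallest. Without the block me minus WT was 0.58, with an unadjusted p of 0.0842. Between he and WT it was -0.01 ± 0.06.

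Casp1, which lies next to Casp4 on chromosome 9 and encodes the protease that matures interleukin 1 beta, had levels of 9.58, 8.90 and 9.35 in me, 9.24, 8.46 and 8.33 in he, and 9.43, 9.13, 8.14 and 8.48 in WT. In set B the me array was well above the WT arrays, and in set A me 1 was above both WT arrays and me 3 lay between them. The difference was 0.34 ± 0.12 (unadjusted p = 0.0211, adjusted p = 0.989). It was 0.19 inside set A, 0.58 inside set B, and 0.21 without me 2. Casp12, the third gene of this cluster, whose product sits at the endoplasmic reticulum in rodents, differed by 0.01 ± 0.05 and ranged from 7.21 to 7.65 in me and from 7.21 to 7.66 in WT. Its mean level, 7.43, was the lowest of all members measured.

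Some markers of myeloid cells, which also express these caspases, were higher in me as well, but not on every array. Macrophage and monocyte markers were higher in me than in WT for 6 of 7, and 3 of these (Lyz2, Csf1r and Ly86) had an unadjusted p under 0.05, with differences of 0.61 ± 0.24, 0.26 ± 0.09 and 0.37 ± 0.07. Their summed normalised intensity was 1140 to 1693 in me, 998 to 1531 in he and 1035 to 1293 in WT. Cd14 and Cd68 of the same list differed by -0.03 ± 0.04 and 0.01 ± 0.06. On me 1, Casp4 and Casp1 were above the WT mean of their set by 0.43 and 0.30. There Lyz2 (7.37) was below WT 1 and WT 2 (7.53 and 7.44), while Csf1r (7.85) and Ly86 (8.03) were above them. Neutrophil markers were higher for 5 of 6 matched, S100a8 by 0.56 ± 0.13 and S100a9 by 0.42 ± 0.11. Ngp, Camp and Elane differed by 0.22 ± 0.13, 0.22 ± 0.11 and 0.23 ± 0.11, and Ltf by -0.04 ± 0.07. Sums of the 6 were 926 to 1645 in me, 962 to 1414 in he and 916 to 1265 in WT. No intensity on these arrays is 0. RNA quality can be read from Gapdh controls at both ends of the transcript, and their 3' over 5' ratio was 9.92 to 13.8 in me, 7.88 to 9.71 in he and 7.84 to 9.53 in WT. Every me array was thus above every he and WT array in this ratio, with me 3 the highest at 13.8. The part of such cells in the caspase differences was not tested. Nor was that of RNA quality in the difference of any member between me and the other genotypes.

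**Figure D2:**
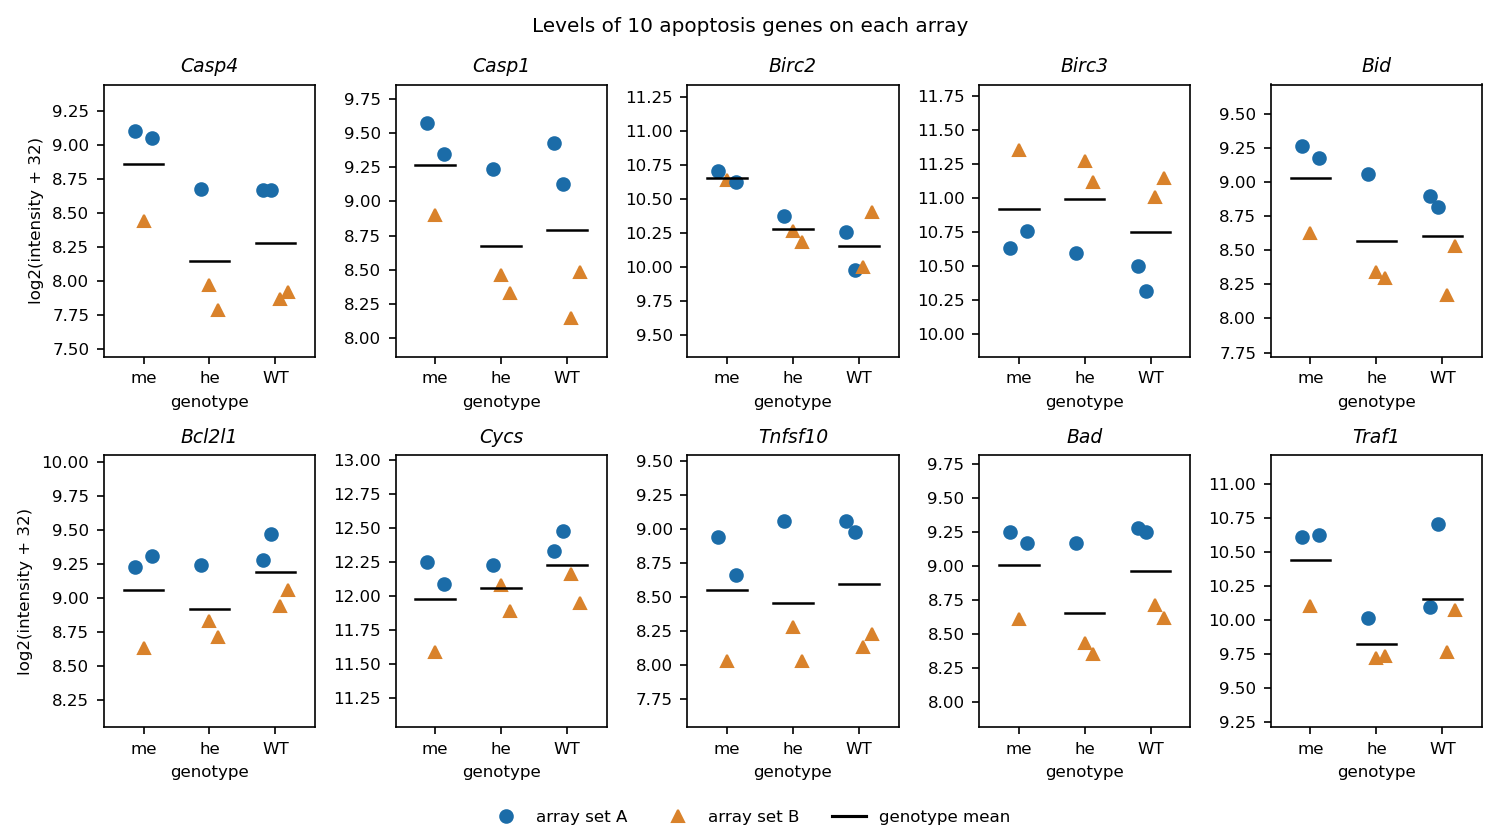
Log2(intensity + 32) of 10 apoptosis genes on each array, by genotype (me, he, WT); circles are set A, triangles set B, lines genotype means, and every panel spans 2 log2 units. For Casp4 each me point is above the he and WT points of the same set, and for Birc2 the 3 me points (10.63 to 10.71) are above all others.

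The stretch before the transcription start is shown for Casp1 and Casp4, the adjacent caspase pair that was higher in me, and for Birc2 and Birc3, the adjacent IAP pair on the same chromosome. The 250 bases are 5′ to 3′ on the gene's strand, from RefSeq on GRCm38.p6. Capitals mark matches on either strand to the NF-kappa B motif, GGG and TTCC set 3 bases apart. Searched as well, on both strands, were the motif of interferon regulatory factors (GAAA and GAAA set 2 bases apart) and that of STAT factors (TTC and GAA set 3 bases apart), and all were chosen with these results known.
Casp1 (chr9:5298267-5298516, + strand): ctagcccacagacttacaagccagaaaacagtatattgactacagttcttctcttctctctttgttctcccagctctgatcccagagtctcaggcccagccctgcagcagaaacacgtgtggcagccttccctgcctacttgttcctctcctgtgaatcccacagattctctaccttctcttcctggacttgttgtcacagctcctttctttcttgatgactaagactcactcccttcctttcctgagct
Casp4 (chr9:5308599-5308848, + strand): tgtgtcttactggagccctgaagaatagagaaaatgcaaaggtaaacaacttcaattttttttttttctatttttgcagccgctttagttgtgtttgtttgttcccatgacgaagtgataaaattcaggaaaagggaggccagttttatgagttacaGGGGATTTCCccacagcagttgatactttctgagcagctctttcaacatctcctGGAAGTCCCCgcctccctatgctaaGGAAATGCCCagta
Birc2 (chr9:7837058-7837307, - strand): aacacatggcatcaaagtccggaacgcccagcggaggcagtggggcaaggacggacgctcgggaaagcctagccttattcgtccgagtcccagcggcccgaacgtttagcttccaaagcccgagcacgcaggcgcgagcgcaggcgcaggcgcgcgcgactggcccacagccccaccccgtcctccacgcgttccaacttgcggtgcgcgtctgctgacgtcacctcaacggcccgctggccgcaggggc
Birc3 (chr9:7873171-7873420, - strand): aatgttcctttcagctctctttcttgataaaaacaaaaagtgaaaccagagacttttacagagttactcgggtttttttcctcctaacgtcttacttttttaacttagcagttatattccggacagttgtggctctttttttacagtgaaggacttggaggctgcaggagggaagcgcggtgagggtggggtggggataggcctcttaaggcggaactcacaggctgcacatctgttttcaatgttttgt
Casp4 held 3 matches to the NF-kappa B motif, GGGGATTTCC, GGAAGTCCCC and GGAAATGCCC, which begin 93, 39 and 14 bases before the start. At least 1 match stood in 4.65% of the 32851 RefSeq windows of this length, and 3 or more in 0.0183%. The other windows shown held no match to any of the 3 motifs. Casp4 and Birc2 have 2 windows each, and for any member with several only the first listed was searched. Of the 30 members with a window, 3 matched the NF-kappa B motif (Mcl1, Bbc3 and Casp4), 2 the STAT motif (Casp12 and Fas; 7.02% of all windows did) and 0 the interferon motif (2.98%). A match is a string of letters and no evidence of binding.

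Of the 3 IAPs, Birc2 and Birc3 had an unadjusted p under 0.05 between me and WT, and Xiap did not. Birc2 (cIAP1), a ubiquitin ligase of tumour necrosis factor receptor complexes, had levels of 10.71, 10.64 and 10.63 in me, 10.38, 10.27 and 10.19 in he, and 10.26, 9.98, 10.00 and 10.41 in WT. The me arrays were above all he and WT arrays, the only member with no overlap between me and WT over all arrays, as for 0.803% of genes in this direction. The me minus WT difference was 0.50 ± 0.11, a 1.41-fold level (unadjusted p = 0.00129, adjusted p = 0.69), with 0.55 in set A and 0.44 in set B. Without the block the difference was 0.50 as well. Birc2 was at nearly the same level in both sets (-0.09 for B minus A), and was the only member with an unadjusted p under 0.05 without the block (0.0015). It lost that mark without normalisation (0.38, unadjusted p = 0.124) and with median centring (0.36, unadjusted p = 0.14). The me minus he difference was 0.38 ± 0.12 (unadjusted p = 0.011, adjusted p = 0.999). Some markers of B cells and plasma cells were higher in me as well. Of 6 matched B cell markers, Ms4a1 was higher in me than in WT by 0.52 ± 0.10, Cd22 by 0.43 ± 0.15 and H2-Aa by 0.41 ± 0.24. Cd79a, Cd79b and Pax5 were near zero, at 0.07 ± 0.07, 0.01 ± 0.09 and 0.03 ± 0.09. Sums were 1664 to 2395 in me, 1332 to 2175 in he and 1439 to 2223 in WT. Plasma cell markers were higher for 4 of 6: Jchain by 2.13 ± 0.36, Ighm by 1.48 ± 0.26, Mzb1 by 0.29 ± 0.09 and Prdm1 by 0.20 ± 0.18. Sdc1 and Xbp1 differed by -0.02 ± 0.20 and -0.05 ± 0.11. Sums were 6227 to 16529 in me, 4804 to 6374 in he and 4180 to 6304 in WT. Their part in the IAP differences was not tested.

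Birc3 (cIAP2), the close relative that lies next to Birc2 and whose transcription NF-kappa B is known to drive, had 10.63, 11.35 and 10.76 in me, 10.60, 11.27 and 11.12 in he, and 10.50, 10.32, 11.01 and 11.15 in WT. Each me array exceeded the WT arrays of its own set. The difference was 0.28 ± 0.07 at the brighter of 2 probe sets (unadjusted p = 0.00302, adjusted p = 0.836) and 0.22 ± 0.07 at the dimmer one, and it was alike in set A (0.28) and set B (0.27). With me 3 counted in set B it was 0.07. Xiap, which blocks caspases directly, differed by 0.13 ± 0.11 at its brightest probe set, and only 2 of its 7 probe sets were above zero. Older annotation exchanged the names of Birc2 and Birc3, and the names here follow the gene IDs.

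Of the 15 protein-coding genes between Casp12 and Birc2 on chromosome 9, 14 were measured, with a median me minus WT difference of 0.01 (lowest -0.05, highest 0.17). An unadjusted p under 0.05 was seen for 1 of the 14, Mmp8, against 5.07% of all genes. Casp12, which bounds the stretch on 1 side and was the dimmest member (mean level 7.43), differed by 0.01. Birc2, which bounds it on the other, differed by 0.50.

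Survival proteins were near zero or below it. Bcl2, the founder of the family, had levels of 9.53, 10.70 and 9.46 in me, 9.93, 10.93 and 9.80 in he, and 9.98, 9.41, 10.93 and 9.89 in WT at its brightest probe set. The genotypes overlapped throughout, with a wide spread inside set B (9.89 and 10.93 in WT), and me minus WT was -0.03 ± 0.33. Its 5 probe sets gave -0.05 to 0.11. Mcl1 had 11.94, 12.07 and 12.01 in me, 12.02, 12.16 and 11.54 in he, and 12.03, 12.11, 12.22 and 11.77 in WT. Its difference was -0.03 ± 0.15, and all 6 probe sets were between -0.16 and -0.03.

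Bcl2l1, which encodes BCL-XL, was the survival gene that parted the genotypes most, at 9.23, 8.63 and 9.31 in me, 9.24, 8.83 and 8.71 in he, and 9.28, 9.47, 8.94 and 9.06 in WT. In set B the me array and both he arrays were below both WT arrays, while in set A me 3 lay between the WT arrays. The difference from WT was -0.21 ± 0.08 in me (unadjusted p = 0.0218) and -0.18 ± 0.08 in he (unadjusted p = 0.0389), neither passing after adjustment (0.989 and 1). These 2 comparisons share the WT arrays. The other 3 probe sets of Bcl2l1, all dimmer, gave 0.04, 0.00 and -0.05 for me minus WT, and the mean over all 4 probe sets gave -0.06. For he minus WT these 3 went the other way, at 0.03, 0.17 (unadjusted p = 0.04) and 0.01, and the mean over all 4 gave 0.01. Without me 2 the me minus WT difference was -0.12. Bcl2l2 (BCL-W), dim on these arrays and the only member below the filter on low values, differed by -0.09 ± 0.06.

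Of the effectors that form the mitochondrial pore, neither measured gene had an unadjusted p under 0.05. Bok had 7.71, 7.60 and 7.64 in me, 7.65, 7.41 and 7.49 in he, and 7.75, 7.69, 7.53 and 7.64 in WT, with a difference of -0.02 ± 0.05 for me minus WT and -0.11 ± 0.05 for he minus WT (unadjusted p = 0.0552). Bak1 differed by -0.01 ± 0.09 in me and 0.00 ± 0.09 in he.

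The BH3-only genes went different ways. Bid, which caspase 8 cuts to link the receptor route to the mitochondrion, had 9.27, 8.63 and 9.18 in me, 9.06, 8.34 and 8.30 in he, and 8.90, 8.82, 8.17 and 8.53 in WT. Every me array was above the WT arrays of its own set. Set A gave 0.36 and set B 0.28 (0.32 ± 0.09 in the fit, unadjusted p = 0.00609, adjusted p = 0.989). The probe sets disagreed: the second gave 0.03 ± 0.19 and the dimmest -0.23 ± 0.07, and their mean gave 0.04. Bid lies on chromosome 6, the chromosome of Ptpn6, with 53 protein-coding genes between them. Of these 37 were measured, with a median me minus WT difference of 0.04. An unadjusted p under 0.05 was seen for 5 of the 37, against 5.07% of all genes.

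Bcl2l11 (BIM) had 9.80, 10.48 and 9.90 in me, 10.36, 11.08 and 9.51 in he, and 10.39, 10.42, 10.78 and 10.19 in WT. Both me arrays of set A were below the WT arrays there, but in set B the difference was 0.00 and the he arrays spanned 9.51 to 11.08. The fit gave -0.35 ± 0.33, and the other 4 probe sets gave -0.13 to 0.03. Pmaip1 (NOXA), which binds MCL1, differed by 0.39 ± 0.21, at levels of 9.59, 8.67 and 8.97 in the me arrays and 7.79 to 9.08 in the WT arrays. Bik differed by -0.11 ± 0.05 and Bbc3 (PUMA), a p53 target, by -0.14 ± 0.10. Bmf differed by 0.01 ± 0.06.

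Bad, which growth factor signals silence by phosphorylation, stood apart in he and not in me. Its levels were 9.25, 8.61 and 9.17 in me, 9.17, 8.43 and 8.35 in he, and 9.28, 9.25, 8.71 and 8.62 in WT. Each he array was below the WT arrays of its own set, and the me arrays lay at or just below them. The difference from WT was -0.21 ± 0.06 in he (unadjusted p = 0.00619, adjusted p = 1) and -0.06 ± 0.06 in me, and me minus he was 0.14 ± 0.06 (unadjusted p = 0.0493, adjusted p = 0.999). The second probe set gave -0.01 for he minus WT.

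Of the factors that act once the membrane opens, Cycs was lower in me. This gene of cytochrome c, an electron carrier of respiration as well as the trigger of the apoptosome, had 12.25, 11.59 and 12.09 in me, 12.23, 12.08 and 11.89 in he, and 12.33, 12.48, 12.16 and 11.95 in WT. Every me array was below the WT arrays of its own set, with -0.23 in set A and -0.47 in set B (-0.32 ± 0.09, unadjusted p = 0.00732, adjusted p = 0.989). The next brightest probe sets gave -0.23 ± 0.10 and -0.12 ± 0.06, and the dimmest 0.00. The difference was -0.21 without me 2 and -0.58 with arrays centred on their medians in place of quantile normalisation. Diablo (SMAC), which leaves mitochondria with cytochrome c and frees caspases from IAPs, differed by -0.14 ± 0.08, and Apaf1, the scaffold, by 0.05 ± 0.13.

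None of the 4 caspases of cell death had an unadjusted p under 0.05 in any comparison. Casp8, the initiator at death receptors, had 10.54, 10.60 and 10.60 in me, 10.41, 10.71 and 10.55 in he, and 10.49, 10.21, 10.61 and 10.51 in WT, with a difference of 0.15 ± 0.08. The groups overlapped in set B. Casp9, the initiator of the apoptosome, differed by -0.01 ± 0.06, Casp2 by 0.12 ± 0.15 and Casp6 by -0.04 ± 0.10.

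Among the death receptor genes the ligand Tnfsf10 (TRAIL) was lower in me, at 8.94, 8.03 and 8.66 against 9.06, 8.28 and 8.03 in he and 9.06, 8.98, 8.13 and 8.23 in WT. The me arrays were below the WT arrays of their set, me 1 and me 2 by little and me 3 by more. The difference was -0.19 ± 0.09 (unadjusted p = 0.0489, adjusted p = 0.989), the other 2 probe sets gave -0.13 and -0.12, and it was -0.11 without me 3 and 0.08 with me 3 counted in set B. Fas, the receptor that limits expanded T cells, had 8.22, 7.84 and 8.12 in me, 8.20, 8.16 and 7.70 in he, and 8.28, 7.95, 7.99 and 7.78 in WT, a difference of 0.02 ± 0.12. Its adaptor Fadd differed by -0.07 ± 0.07, Tradd, the adaptor of the tumour necrosis factor receptor, by -0.05 ± 0.06, Traf2 by 0.05 ± 0.06 and Cflar by 0.19 ± 0.12.

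Traf1, a partner of TRAF2 and a transcript known to follow NF-kappa B and activation, parted me from he. Its levels were 10.61, 10.10 and 10.62 in me, 10.01, 9.72 and 9.73 in he, and 10.09, 10.70, 9.76 and 10.07 in WT. All me arrays were above all he arrays (1.57% of genes were so parted upward over all arrays), with me minus he at 0.48 ± 0.15, a 1.39-fold level (unadjusted p = 0.0114, adjusted p = 0.999). The WT arrays overlapped the me arrays, while each he array was below the WT arrays of its own set. The difference was 0.22 ± 0.14 for me minus WT and -0.26 ± 0.14 for he minus WT. The dimmer probe set gave 0.13 for me minus he.

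**Figure D3:**
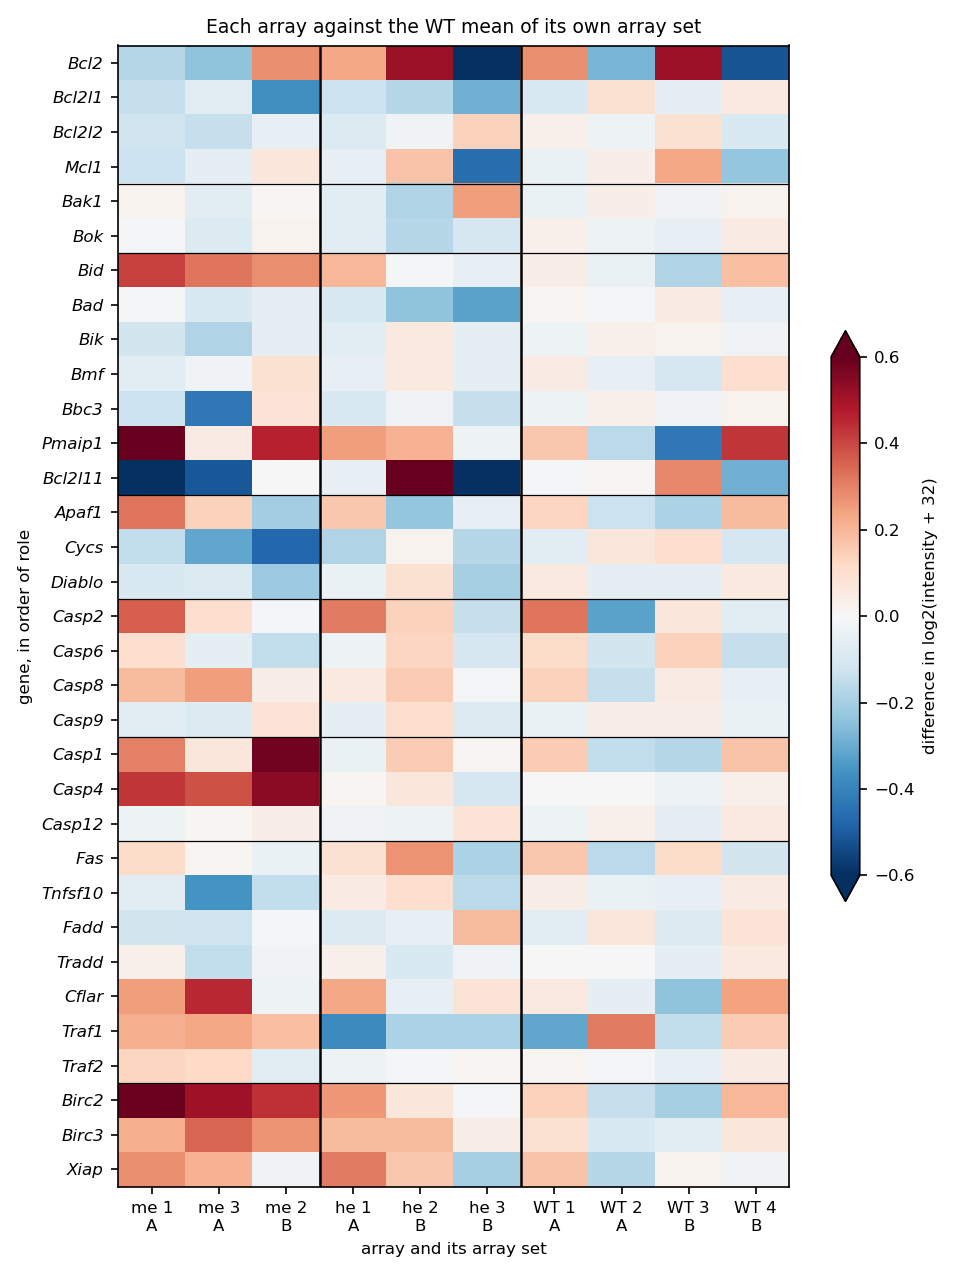
Log2(intensity + 32) of each apoptosis gene on each array minus the mean of the WT arrays of the same array set, for 3 me, 3 he and 4 WT arrays; the colour scale ends at 0.6 in both directions. Casp4, Birc2, Birc3 and Bid are above zero on all 3 me arrays, as are Pmaip1, Casp1, Casp8 and Traf1. Bcl2 and Bcl2l11 vary as much among he and WT arrays as among me arrays.

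Between he and WT no member differed by over 0.3, as 0.473% of all genes did. At an unadjusted p under 0.05 there were 2 of 33, Bcl2l1 and Bad, both lower, against 2.28% of all genes (1.67% lower and 0.61% higher; 0 members and 0.335% of genes without the block), and 20 members lay within 0.1 of zero (60.6%, against 80.1% of all genes). The largest he minus WT difference in size among members was 0.26 (Traf1, lower in he). Between me and he there were 6 of 33 (Bid, Bad, Casp1, Casp4, Traf1 and Birc2), all higher in me, against 3.52% of all genes (2.15% higher and 1.37% lower). Without the block there were 2, Traf1 and Birc2, against 0.841% of all genes. Each me array was above the he arrays of its set for 6 members (8.98% of genes) and below them for 2, Bcl2l2 and Diablo (8.14%). Over arrays, each me array lay above the WT arrays of its own set for 4 members (Bid, Casp4, Birc2 and Birc3; 4.8% of genes) and below them for 4 (Bik, Cycs, Diablo and Tnfsf10; 7.68% of genes). Each he array lay below them for 4 members (Bcl2l1, Bok, Bad and Traf1; 5.37% of genes) and above them for 0 (2.7%).

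Most members followed array set more than genotype. All set B arrays were below all set A arrays for 18 of the 33, from Bcl2l1 to Traf2, where 29.6% of all genes were, and above them for 2, Casp12 and Birc3, where 24.6% were. Tradd and Casp1 were lower in set B by -0.88 each and Casp4 by -0.83, which exceeds any member's difference between genotypes. These counts are a description, since the same values defined the sets.

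Where a member had several probe sets they did not always run together. Of 23 such members, 11 had every probe set on the same side of zero for me minus WT, among them Birc3, Tnfsf10, Mcl1 and Bik. The 10 members with 1 probe set, Casp1, Casp4 and Birc2 among them, have no such check.

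**Figure D4:**
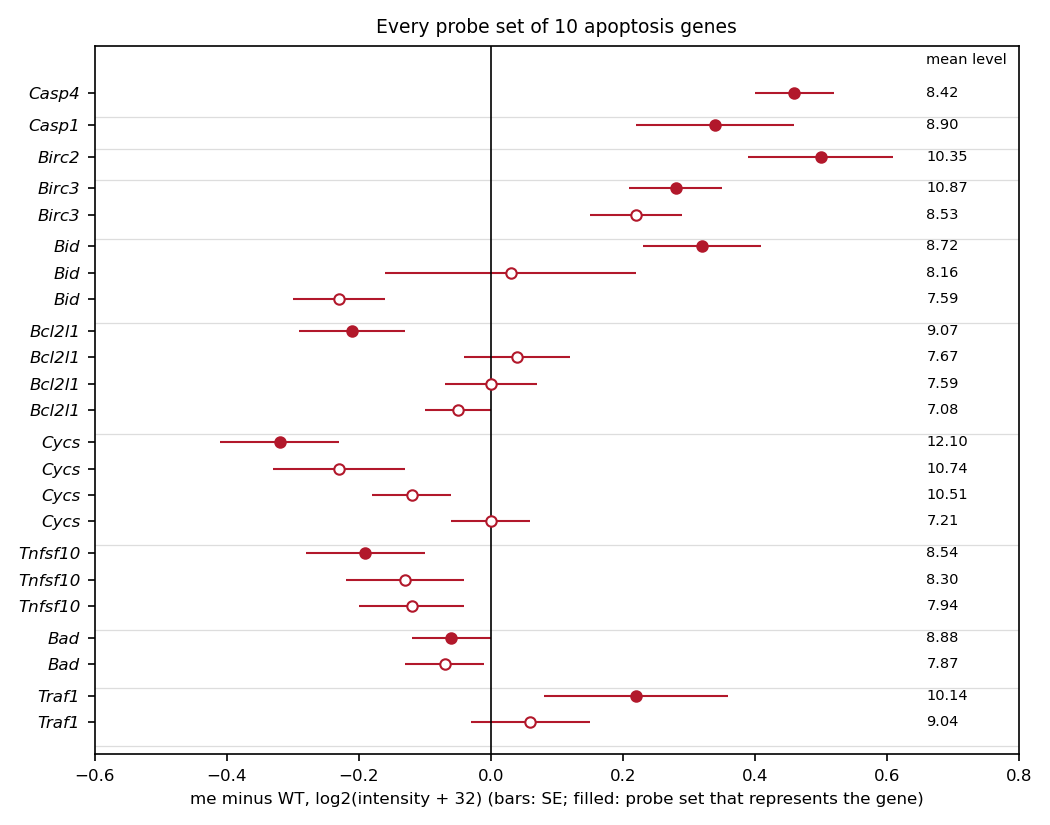
Me minus WT differences in log2(intensity + 32), with array set as a block, for every probe set of 10 apoptosis genes; bars are standard errors, filled points the probe set that represents the gene, and numbers at the right its mean level. For Birc3, Tnfsf10, Bad and Traf1 all probe sets lie on 1 side of zero, and those of Bid lie on both.

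Of 52 further genes of these pathways 42 were measured, and none passed the adjusted threshold in any comparison. Between me and WT, 22 were higher and 20 lower. At an unadjusted p under 0.05, 0 of the 42 were higher (2.1% of all genes were) and 3 were lower (2.97%). The 3 were Parp1, a caspase substrate of DNA repair, by -0.20 ± 0.05, Aifm1, the mitochondrial flavoprotein AIF, by -0.15 ± 0.05, and Endog, a mitochondrial nuclease, by -0.26 ± 0.11. The median difference of the 42 was 0.0064, against -0.0015 over all genes. Fasl, the ligand of Fas, differed by -0.17 ± 0.08 (unadjusted p = 0.0607), and Pycard (ASC), the adaptor that joins caspase 1 to inflammasomes, by 0.28 ± 0.13 (unadjusted p = 0.0612).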

How the data were processed

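CD4+CD25+ T cells were profiled on 10 Affymetrix arrays, with 20 ng of total RNA amplified and 10 ug of the amplified RNA labelled, per the labels. The authors deposited intensity values, on a linear scale, for every probe set. How those were summarised and scaled was not stated in the labels or headers. The medians of single arrays were 148 to 188.

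Of 45101 probe sets, 64 controls were left out. Of the 45037 tested, the platform annotation named 1 gene for 34945, several for 932 and none for 9160. Values became log2(intensity + 32) and were quantile normalised. Array sets are 2 clusters of average linkage on 1 minus Pearson correlation. limma 3.58.1 in R 4.3.3 fitted all 10 arrays with genotype and array set (lmFit, eBayes, leaving 6 residual degrees of freedom), and p-values were adjusted by Benjamini and Hochberg's method over all probe sets. The procedure was tested on simulated data. The number of arrays limits the precision.

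Named genes are all members by role. Per-array values are given for members with an unadjusted p under 0.05 in any comparison, for the smallest me minus WT p of each role group, and for Bcl2, Mcl1, Bcl2l11 and Fas, and up to 5 further pathway genes are named by smallest p. The members, lists and tests, the array set block among them, were chosen with earlier results of these data known. Alternatives were other blocks, normalisation, pseudocounts of 1 and 128, a filter (above the median in 3 arrays), other priors and weights, 2 genotypes alone, the mean of all probe sets of a gene, and leaving out each array.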

Additional observations from a re-analysis of the deposited data

How the results depend on the processing

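The number of members at an unadjusted p under 0.05 (8 for me minus WT, 2 for he minus WT and 6 for me minus he) moved by over 1.5 times in some of the 23 alternatives. The share of all genes at that mark (5.07%, 2.28% and 3.52%) moved as well and is given in brackets. Without the array set block the member counts were 1, 0 and 2 (0.874%, 0.335% and 0.841% of all genes). With me 3 counted in set B the count was 5 for me minus WT (4.03%) and 0 for he minus WT (0.863%). Without normalisation it was 3 for me minus WT (4.3%) and 2 for me minus he (3.5%). With median centring the counts were 3, 0 and 2 (4.78%, 1.75% and 2.89%). For he minus WT the count was also 1 with the filter on low values (1.48% of the genes kept) and 1 with an intensity trend and robust prior (1.79%). With array weights it was 6 (7.69%). Deviations of same-numbered arrays had correlations from -0.19 to 0.32. Differently numbered arrays were not set beside them, so these values cannot decide whether replicate numbers pair the arrays. With a replicate block beside array set the counts were 13 for me minus WT (7.33%) and 5 for he minus WT (3.08%). Leaving out 1 array gave 6 to 10 (4% to 7.59%), 1 to 5 (1.77% to 4.32%) and 4 to 6 (2.65% to 6.13%).

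No member passed the adjusted threshold except Casp4, with array weights (adjusted p = 0.0221 for me minus WT and 0.023 for me minus he) and with the first principal component in place of array set (0.0379 for me minus WT). Its me minus WT difference was 0.36 to 0.69 over all alternatives and that of Birc2 0.36 to 0.58. Of the differences with an unadjusted p under 0.05, 2 reversed: Tnfsf10 for me minus WT, 0.08 with me 3 counted in set B, and Bcl2l1 for he minus WT, 0.01 with the mean of all probe sets. The cause was not tested. Signs of the other 25 members for me minus WT turned for 0 to 11 of them, most with me 3 counted in set B. Bcl2l2 was too dim to pass the filter on low values, and no detection call was used.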
